A study of Danio rerio with 6 samples.

Results

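The subunits of the BAF chromatin remodelling complex were examined in zebrafish blastulas made to overexpress *ndr1*, which encodes a Nodal ligand. The genes were *smarcd3b*, which the study had picked for *in situ* hybridisation as a candidate Nodal target, and 8 further subunit genes, *smarcd3a*, *smarcd1*, *smarca4a*, *smarcb1b*, *smarcc1a*, *smarcc1b*, *smarce1* and *arid1ab*. Every array feature (a spot with its own probe) that the platform annotation lists under 1 of these 9 symbols was taken. This gave 12 of 45220 features, for 7 of the 9 genes. *smarcd3a* and *arid1ab* were matched to no feature and were not analysed here. The study counted *smarcd3b* among the genes raised by *ndr1* on its arrays. By *in situ* hybridisation it reported more *smarcd3b* RNA in *ndr1*-injected embryos at a later stage than sphere. In embryos without Nodal signalling it reported reduced or absent expression at that stage. At sphere stage *smarcd3b* was not among the genes for which it reported an increase by this method. The 6 samples were whole AB strain embryos at sphere stage, a blastula stage, with about 200 embryos in each. In 3 samples (*ndr1*-injected) the embryos were given *ndr1* mRNA, 50 pg per embryo in 1 nl of water, and in 3 (control-injected) 1 nl of water. These are the amounts of the labels. The injection protocol in the methods, which covers several mRNAs, names less *ndr1* mRNA and *egfp* mRNA for controls, and it does not say whether the arrays followed it. The injected mRNA acts wherever it is inherited, so the *ndr1*-injected embryos carry Nodal ligand outside the margin as well. In whole embryos, more cells of a type and more RNA per cell cannot be told apart.

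BAF complexes, the vertebrate form of yeast SWI/SNF, use ATP to slide or evict nucleosomes and so open regulatory DNA. The motor is Smarca4 (Brg1) or its relative Smarca2, and it sits on a core of Smarcc, Smarcb1, Smarce1 and Smarcd proteins, to which Arid1 subunits add. The Smarcd place can be filled by Smarcd1, Smarcd2 or Smarcd3, and exchange of such variants gives complexes of different cell types. Smarcd3 (Baf60c) is the variant of the early heart field in mouse, where it acts with Gata and T-box factors, and it is required for left-right asymmetry through Notch signalling. In zebrafish, Gata5 and Smarcd3b supplied together can direct cells to the heart. Nodal signals through Smad2, which reaches DNA with partners such as the forkhead factor Foxh1. The study lists a potential Foxh1 site, a match to a motif matrix, in a Smad2 peak assigned to *smarcd3b*. It is printed here because Smad2 carries the Nodal signal, with capitals marking the whole match and the strand not given. Nothing in the arrays tests whether Foxh1 binds it.
smarcd3b, site as listed: TACATTCCACA
smarcd3b, reverse complement: TGTGGAATGTA

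Values are log2 signals, so a difference of 1 is a doubling, and differences are *ndr1*-injected minus control-injected. The single *ndr1* feature read 13.79, 14.85 and 13.89 in *ndr1*-injected embryos, against 10.61, 10.10 and 10.87 in control-injected embryos, a difference of 3.65 (limma adjusted p 0.106 over all features). Arrays correlated with r from 0.920 to 0.926 within the *ndr1*-injected and from 0.836 to 0.886 within the control-injected group. Deviations of neighbouring features from the median array correlated with r from 0.357 to 0.633, so part of the signal moves with array position. The differences of the subunits are therefore also given after the local deviation, measured on features of like brightness, had been subtracted, which was decided on once the values were known. With this subtraction *ndr1* differed by 3.78 (adjusted p 0.00711). Percentiles of signal for marker lists were taken on the brightest feature of each gene. The 6 measured pluripotency and genome activation markers of the blastula lay between the 94.7th and 99.6th percentile. That list also holds the ventral homeobox genes *vox* and *ved*. The 9 measured markers of differentiated tissues lay between the 8.67th and 85.1st percentile, with a median of 48.9.

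*smarcd3b* was somewhat higher on average in *ndr1*-injected embryos, but the groups overlapped and the difference did not pass the test. It has 1 named feature (10115). The study lists its *smarcd3b* probe by a probe name, which the numbered features of the files do not carry, so that probe may be another feature with no listed symbol. The values below are those of feature 10115 alone. It read 9.31, 9.50 and 8.79 in *ndr1*-injected embryos, against 8.51, 9.53 and 8.20 in control-injected embryos. Control-injected replicate 2 was the highest of all 6 arrays, while the other two control-injected arrays were the lowest. The means were 9.20 ± 0.37 in *ndr1*-injected and 8.75 ± 0.70 in control-injected embryos (SD, n = 3 each). The difference was 0.45 ± 0.41 (SE), or 1.37-fold, with a 95% interval from -0.50 to 1.41 and an adjusted p of 0.791 by limma over 45220 features. This interval reaches from 0.705-fold to 2.66-fold, so a doubling could not be distinguished from no difference with these arrays. By exact permutation (two-sided) p was 0.4, where 0.1 is the smallest value that 3 arrays against 3 allow.

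The size of the *smarcd3b* difference rested on single control arrays. Without control-injected replicate 2 it was 0.84 (adjusted p 0.46), and without control-injected replicate 3 it was 0.18 (adjusted p 0.945). It stayed above 0 in all 15 alternative settings that were run, but these settings reuse the same arrays. The replicate block, the filter on dim features and the robust variance cannot change the difference at all. The count is therefore no separate evidence of a rise. After subtraction of array position within brightness classes the feature read 9.37, 9.27 and 8.85 in *ndr1*-injected embryos, against 8.63, 9.49 and 8.04 in control-injected embryos. The order of the arrays was then nearly as before, with control-injected replicate 2 still highest, and the difference was 0.44 ± 0.35 (SE). Its 95% interval ran from -0.36 to 1.25.

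**Figure D1:**
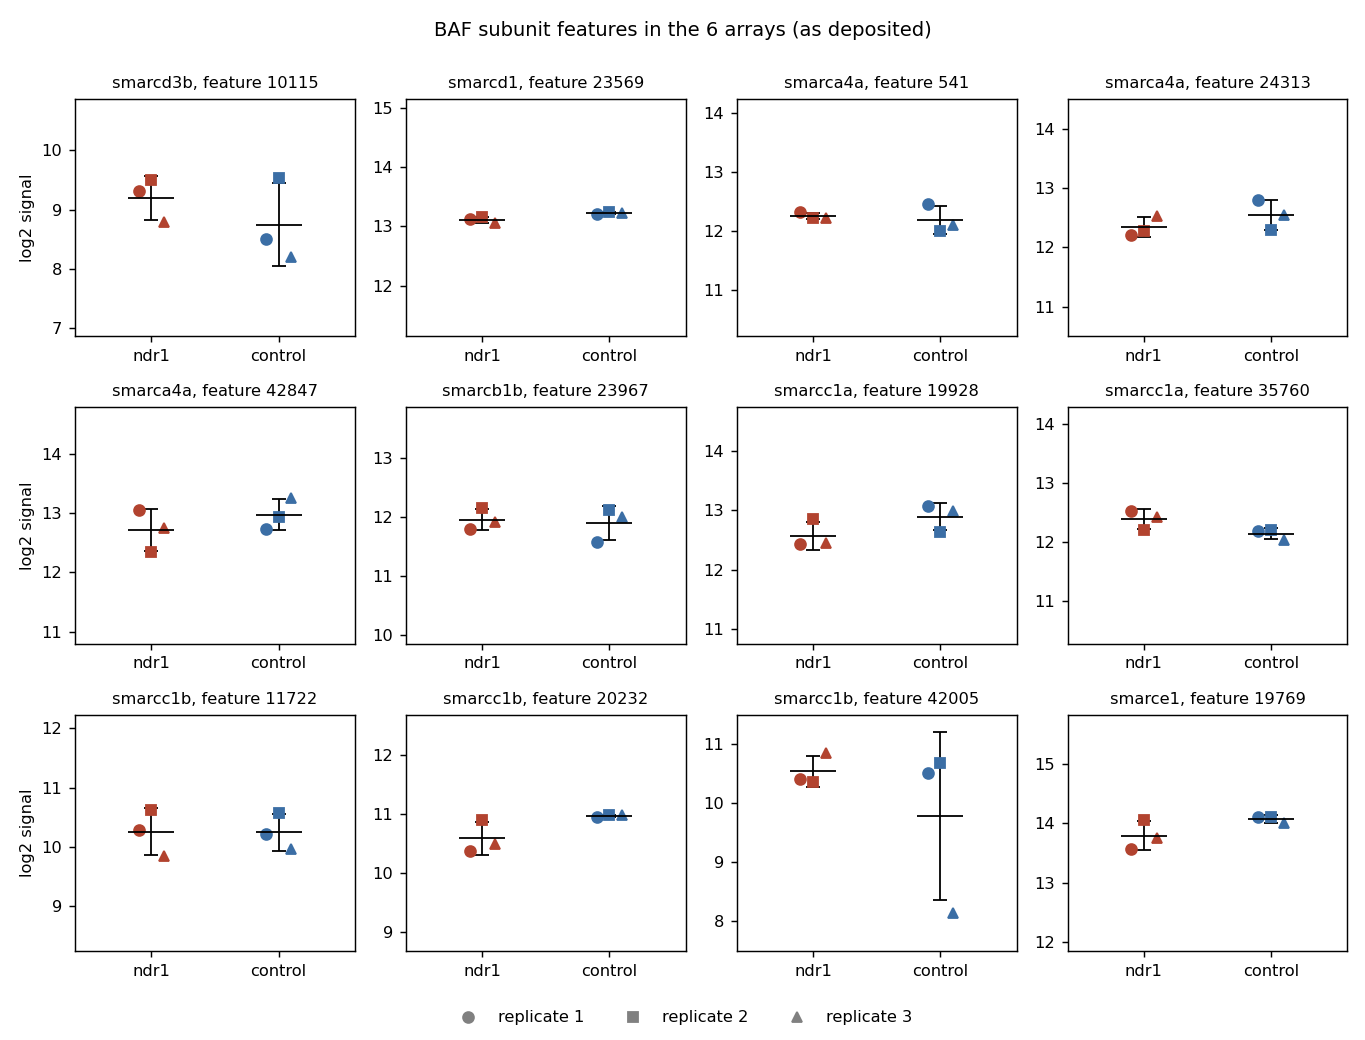
Log2 signal (vertical axis, each panel spanning 4 log2 units) of the 12 named BAF subunit features in *ndr1*-injected (red, left) and control-injected (blue, right) embryos; symbols are replicates, horizontal lines means and bars the SD. The *smarcd3b* groups overlap because control-injected replicate 2 reads 9.53, and *smarcc1b* feature 42005 has 1 low array, control-injected replicate 3 at 8.15.

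*smarcd1*, which encodes the widely expressed variant of the same subunit place, was nearly level over the arrays. Its feature (23569) read 13.13, 13.16 and 13.06 in *ndr1*-injected embryos, against 13.21, 13.24 and 13.23 in control-injected embryos. All *ndr1*-injected values thus lay below all control-injected values, by a very small margin. The difference was -0.11 ± 0.25 (SE; adjusted p 0.904), with a 95% interval from -0.70 to 0.47. The pooled SD within groups was 0.039, and only 0.0398% of features had a smaller one. The standard error is wider than this spread because limma draws the variance of each feature towards that of all features. After subtraction of array position the order of the groups turned round and the difference was 0.19, so the direction for *smarcd1* is not settled by these arrays.

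*smarca4a*, the gene for the Brg1 motor, was read by 3 features that gave no common direction. Feature 541 read 12.32, 12.22 and 12.23 in *ndr1*-injected embryos, against 12.46, 12.00 and 12.11 in control-injected embryos. Feature 24313 read 12.21, 12.28 and 12.53 in *ndr1*-injected embryos, against 12.80, 12.29 and 12.55 in control-injected embryos. The groups overlapped on both features. Feature 42847 read 13.06, 12.34 and 12.75 in *ndr1*-injected embryos, against 12.74, 12.93 and 13.25 in control-injected embryos, which overlapped too. The differences were 0.07 ± 0.27, -0.20 ± 0.28 and -0.26 ± 0.31 (SE), with adjusted p of 0.947, 0.847 and 0.827. After subtraction of array position they were -0.08, 0.02 and -0.58, the last resting on control-injected replicate 3, which then read 14.02 against 12.45 to 12.96 in the other five arrays.

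The scaffold genes *smarcc1a* and *smarcc1b*, whose products (Baf155 in mammals) hold the core together, also differed between their own features. For *smarcc1a*, feature 19928 read 12.43, 12.85 and 12.45 in *ndr1*-injected embryos, against 13.07, 12.63 and 12.99 in control-injected embryos, with overlap. Feature 35760 read 12.53, 12.21 and 12.43 in *ndr1*-injected embryos, against 12.19, 12.20 and 12.04 in control-injected embryos, all *ndr1*-injected values being higher. The differences thus had opposite signs, -0.32 ± 0.29 and 0.24 ± 0.26 (SE; adjusted p 0.788 and 0.815). After subtraction of array position they were 0.00 and 0.12.

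For *smarcc1b*, feature 20232 read 10.37, 10.90 and 10.49 in *ndr1*-injected embryos, against 10.95, 10.97 and 10.98 in control-injected embryos. All *ndr1*-injected values were lower, with a difference of -0.38 ± 0.28 (SE; adjusted p 0.766), which was -0.07 after subtraction of array position, when the groups overlapped. Feature 11722 read 10.29, 10.63 and 9.84 in *ndr1*-injected embryos, against 10.21, 10.58 and 9.96 in control-injected embryos, a difference of 0.00 ± 0.33 (SE). Feature 42005 read 10.41, 10.35 and 10.84 in *ndr1*-injected embryos, against 10.51, 10.68 and 8.15 in control-injected embryos. This feature had the largest difference of the 12, 0.75 ± 0.65 (SE; adjusted p 0.783), and owed it to the low reading of control-injected replicate 3. Without that array it differed by -0.06, and after subtraction of array position by 0.63.

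The remaining core genes showed small differences. *smarcb1b*, whose product (Snf5 in yeast) helps anchor the complex to the nucleosome, read 11.80, 12.14 and 11.91 in *ndr1*-injected embryos, against 11.57, 12.11 and 12.00 in control-injected embryos (feature 23967). The groups overlapped and the difference was 0.06 ± 0.29 (SE; adjusted p 0.959), or -0.02 after subtraction of array position. *smarce1*, which encodes the HMG-box subunit Baf57, read 13.57, 14.06 and 13.75 in *ndr1*-injected embryos, against 14.11, 14.11 and 14.00 in control-injected embryos (feature 19769). Only the replicate 2 value of *ndr1*-injected embryos reached the control-injected range. The difference was -0.28 ± 0.27 (SE; adjusted p 0.802), and 0.00 after subtraction of array position, with a 95% interval from -0.40 to 0.39.

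**Figure D2:**
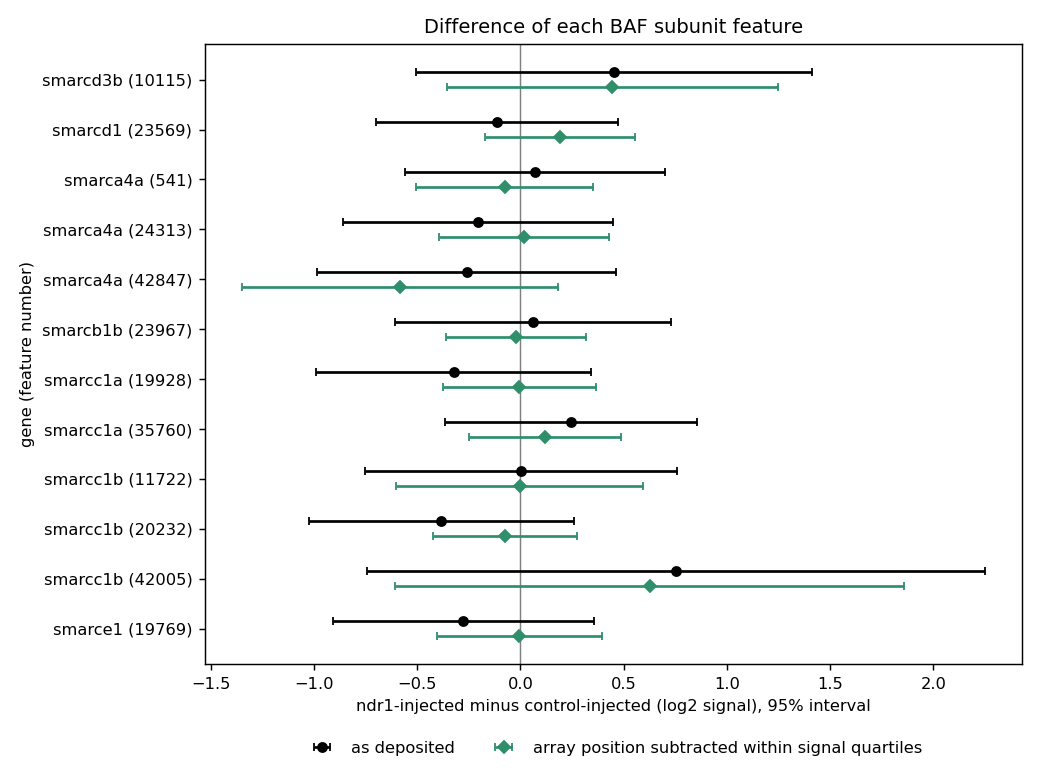
Difference between *ndr1*-injected and control-injected embryos (log2 signal, horizontal axis) for each BAF subunit feature, with 95% intervals of the limma fit, as deposited (black circles) and after subtraction of array position within signal quartiles (green diamonds). All 12 intervals include 0 in both forms, and after subtraction 9 of 12 differences lie within 0.2 of 0. The share of all features within 0.2 of 0 was not counted.

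Over the BAF genes together, 6 features were above and 6 below 0, with a median difference of -0.06, against 0.04 over all 21061 named features. None of the 12 passed an adjusted p of 0.05 by limma, where the background over all features was 0% as well (at an unadjusted p below 0.05 the background was 6.74%, or 3048 of 45220, and 0 of the 12 passed). The text of the study gives its cutoff as a P of at most 0.02, without saying whether it was adjusted. At an unadjusted limma p of at most 0.02, 0 of the 12 passed, where the background was 2.36% (1.17% higher and 1.18% lower). For *smarcd3b* this is a count on feature 10115, which was not matched to the probe of the study. The groups did not overlap for 3 of the 12, 1 higher and 2 lower in *ndr1*-injected embryos, where the background was 13.1% (7.53% higher and 5.55% lower). With 1 feature per gene, the brightest, 0 of the 7 genes passed, where the background was 0.0208%, and adjusted p ran from 0.747 to 0.949. None of the 7 had an unadjusted p of at most 0.02 either (background 2.74%). With array position subtracted, 0 of the 12 features passed the adjusted threshold with windows that mixed brightness (background 0.0619%) or within brightness classes (background 0.0243%). In the second form 0 of the 12 had an unadjusted p of at most 0.02 (background 1.94%), and the groups did not overlap for 1 of the 12, *smarcd1* (background 11.4%). The probes of different genes cannot be ranked by level, because signal depends on the probe as well as on the RNA.

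Most of the subunit features were bright for this array. The mean signal of 8 of the 12 was above the 90th percentile of all features, and 10 of the 12 had a smaller spread within groups than the median feature (pooled SD 0.482). Bright features had a small spread in general, with a median SD of 0.213 among the 4522 brightest. *smarcd3b*, at the 57.6th percentile with a pooled SD of 0.558, was the dimmest of the 12, and *smarcc1b* feature 42005 had the widest spread (1.02). Subtraction of array position within brightness classes narrowed the spread of 8 of the 12. Over all features it narrowed the spread of 91.4%, 93.2%, 89.7% and 78.8% in signal quartiles 1, 2, 3 and 4, counted from the dimmest. The subtraction also brought 9 of the 12 differences within 0.2 of 0, against 4 of the 12 as deposited. The share of all features within 0.2 of 0 was not counted. After this subtraction the limits were closest for *smarcb1b*, with a 95% interval from 0.780-fold to 1.25-fold. For *smarcc1a* feature 19928 it ran from 0.771-fold to 1.29-fold, and for *smarce1* from 0.756-fold to 1.31-fold.

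Whether *smarcd3b* differed from its fellow subunits was tested within each array. The study had counted *smarcd3b* as raised on these same arrays, so the p-values here are not independent of that choice. Every gene was centred on its own mean over the 6 arrays, and the median of the other 6 measured genes was subtracted from *smarcd3b*. The result was 0.56, 0.41 and -0.04 in *ndr1*-injected embryos, against -0.57, 0.43 and -0.91 in control-injected embryos. The groups overlapped through control-injected replicate 2, which lay above *ndr1*-injected replicates 2 and 3. The means were 0.31 ± 0.31 in *ndr1*-injected and -0.35 ± 0.70 in control-injected embryos (SD, n = 3), and the difference of 0.66 gave p = 0.3 in an exact two-sided permutation test, with 0.1 the smallest possible. It was 1.06 without control-injected replicate 2 and 0.38 without control-injected replicate 3 (exact p = 0.1 and 0.6). With array position subtracted it was 0.88 and 0.90 with windows of 9 and 15 features (exact p = 0.1 each) and 0.48 within brightness classes (exact p = 0.4).

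**Figure D3:**
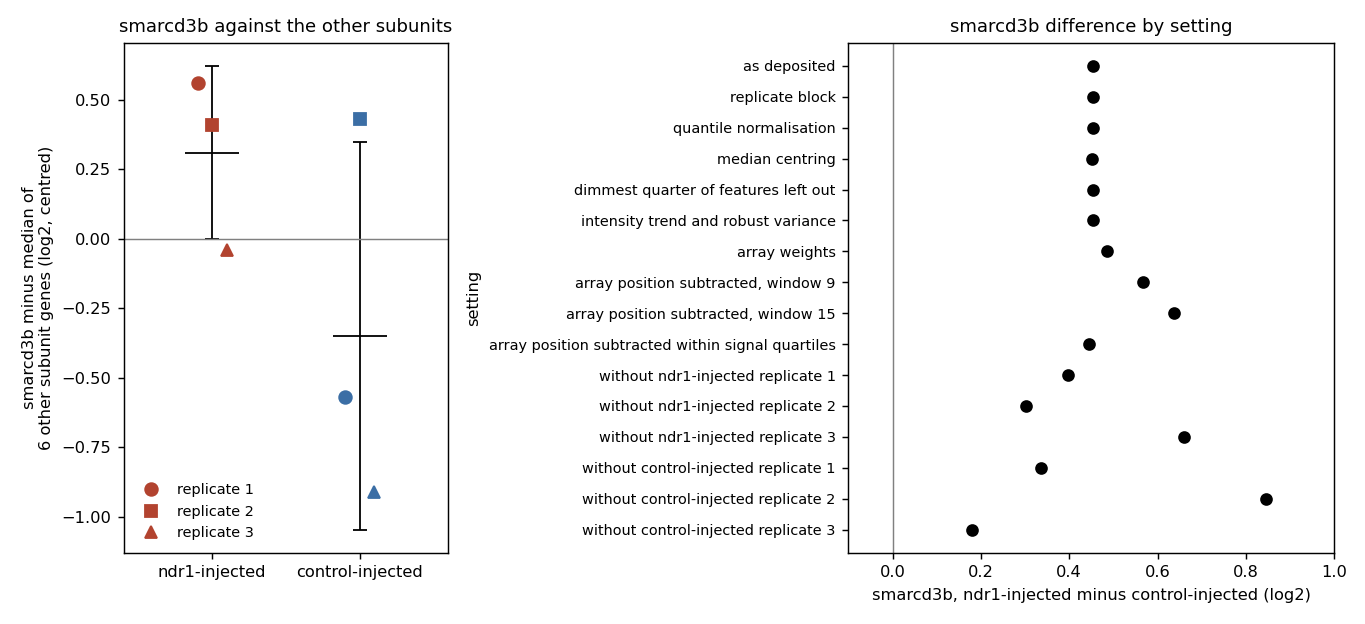
Left, log2 signal of *smarcd3b* minus the median of the other 6 measured subunit genes in each array, both centred, in *ndr1*-injected (red) and control-injected (blue) embryos; lines are means and bars the SD. Right, the difference of *smarcd3b* between the groups (log2) under each setting, which runs from 0.18 to 0.84.

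The rest of the BAF family was read from a list of 31 other subunit genes, of which 21 were measured by 28 features. None passed an adjusted p of 0.05 by limma, where the background over all features was 0% as well. The median difference was 0.22, with 22 features above and 6 below 0, where 54% of all named features were above 0. The groups did not overlap for 5, all of them higher in *ndr1*-injected embryos, where the background in that direction was 7.53%. The largest difference was that of *phf10*, a subunit of the PBAF form, at 1.101 ± 0.475 (SE; adjusted p 0.726). It read 10.46, 9.66 and 10.12 in *ndr1*-injected embryos, against 9.47, 9.52 and 7.96 in control-injected embryos, and its other feature differed by 0.00. *bcl7bb* differed by 0.45 ± 0.28 and -0.02 on its features, *dpf3*, a reader of histone acetylation in muscle and heart, by -0.49 ± 0.39, and the ncBAF gene *bicra* by -0.46 ± 0.43. The third variant of the Smarcd place, *smarcd2*, read 9.67, 7.73 and 9.26 in *ndr1*-injected embryos, against 8.24, 9.13 and 7.23 in control-injected embryos, and the second motor gene *smarca2* differed by 0.86 ± 0.64 and 0.45 ± 0.44. Both *smarca2* features were lowest in control-injected replicate 3, at 8.31 and 9.01. After subtraction of array position the median of the list was 0.11, with 19 features above and 9 below 0, where 53.8% of all named features were above 0. The groups then did not overlap for 2 of the 28 features, where the background in either direction was 11.4%. With this subtraction *phf10* differed by 0.34, *bcl7bb* by -0.02 and 0.06, *dpf3* by -0.09 and *bicra* by -0.11.

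Genes that work with Smarcd3 in the heart field were measured by 22 features for 14 of 17 listed genes, with a median difference of 0.28 and none past the test. The largest differences were those of *gata5* and *gata6*. *gata5* (feature 24844) read 11.32, 11.06 and 10.30 in *ndr1*-injected embryos, against 9.72, 8.44 and 8.35 in control-injected embryos. *gata6* read 11.23, 9.50 and 9.20 in *ndr1*-injected embryos, against 8.21, 7.59 and 7.20 in control-injected embryos. The groups did not overlap on either of these features. The differences were 2.06 ± 0.46 and 2.31 ± 0.56 (SE; adjusted p 0.726 each), and the second *gata5* feature differed by 3.46 ± 0.55 (adjusted p 0.430). After subtraction of array position the *gata5* features differed by 2.18 (adjusted p 0.126) and 2.72 (adjusted p 0.0552), and *gata6* by 1.54. The third Gata gene of the list, *gata4*, was at 0.67 ± 0.28, or 0.18 with array position subtracted. Among the genes below 0, *nkx2.5* was at -0.52 ± 0.35 and *tbx5b* at -0.49 ± 0.47, or -0.17 and -0.23 with array position subtracted. The *hand2* features were at -0.91 ± 0.45 and 0.52 ± 0.29, and with array position subtracted both were above 0, at 0.05 and 0.31. The *mef2ca* features were at -0.83 ± 0.32, 0.97 ± 0.32 and -0.04 ± 0.29, or -0.73, -0.08 and -0.26 with array position subtracted. The *tbx5a* features were at 0.60 ± 0.44 and -0.01 ± 0.63, or 0.11 and 0.18.

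Notch and left-right genes were measured by 41 features for 20 of 22 listed genes, with a median of 0.16. Their largest differences were those of the Nodal antagonist genes *lft1*, at 4.20 ± 0.51, and *lft2*, at 3.66 ± 0.47 (SE; adjusted p 0.184 and 0.230). With array position subtracted within brightness classes, *lft1* was the only feature of all lists that passed (3.99, adjusted p 0.0123), where the background was 0.0243%. With windows of 9 features *lft2* passed (adjusted p 0.0425) and *lft1* did not (adjusted p 0.0912), and 1 heart-field feature passed as well, where the background was 0.0619%. The Notch ligand gene *dlc* was at 1.30 ± 0.32, 0.83 ± 0.30 and 0.16 ± 0.33 on its features, or 0.90, 0.93 and 0.43 with array position subtracted within brightness classes. The lowest was the Hairy-related gene *heyl*, at -1.06 ± 0.38, or -0.19 with array position subtracted. The Hairy-related genes *her6* and *her9* went the other way, at 0.925 ± 0.34 and 0.923 ± 0.356. With array position subtracted within brightness classes they were at 0.769 and 0.375. Of the features of the ligand gene *jag2b* the brightest was at -0.63 ± 0.37, and the others were at 0.27, 0.58 and 0.05.

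**Figure D4:**
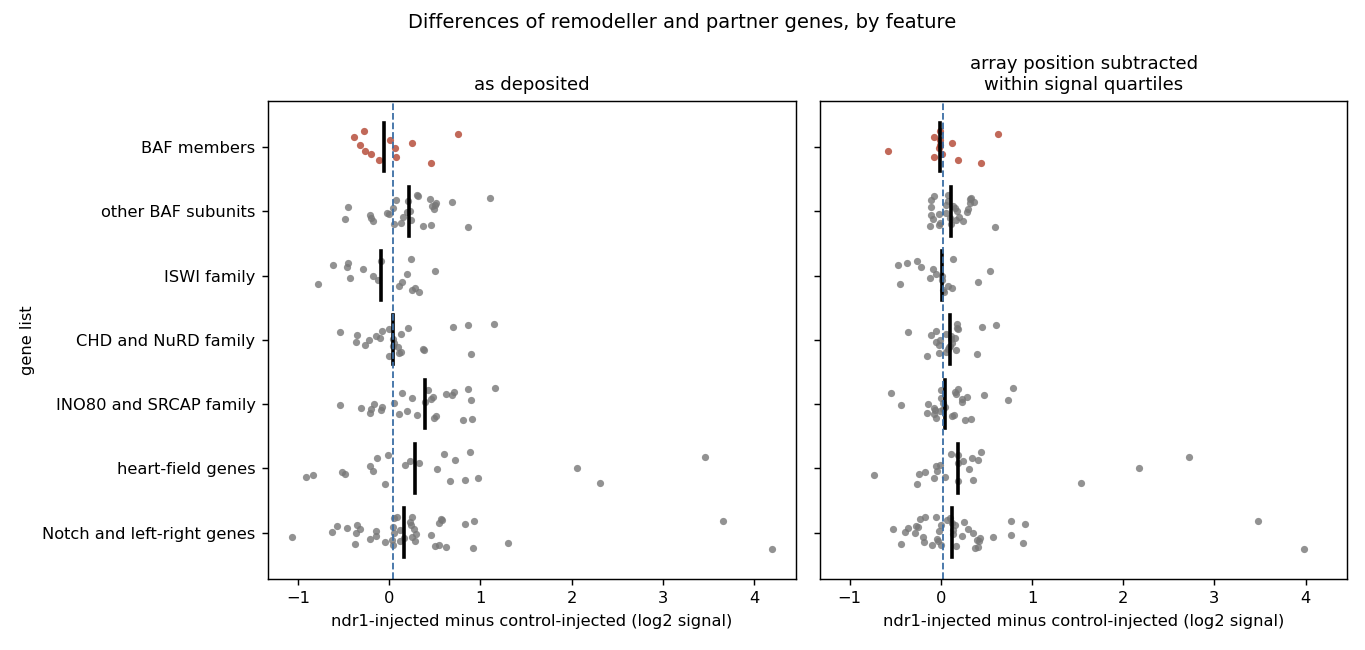
Difference between *ndr1*-injected and control-injected embryos (log2 signal, horizontal axis) for each feature of the BAF members (red) and 6 related lists (grey), as deposited (left) and with array position subtracted within signal quartiles (right); black lines are list medians and the dashed line is the median of all named features. The medians draw together on the right, the INO80 and SRCAP list at 0.05 against 0.40 as deposited, while *gata5*, *gata6*, *lft1* and *lft2* stay far to the right.

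The genes whose profile over the 6 arrays lay nearest to that of *smarcd3b* were found by the root mean square difference of centred values. They were *dnaja3b*, a J-domain co-chaperone gene, at 0.113, *adprs*, an ADP-ribose hydrolase gene, at 0.118, and the F-box gene *fbxo44.1* at 0.133. Each shared the high reading of control-injected replicate 2 and the low reading of replicate 3, which follows from the way they were chosen. *adprs*, for example, read 10.30, 10.21 and 9.62 in *ndr1*-injected embryos, against 9.50, 10.58 and 9.20 in control-injected embryos. The differences of *dnaja3b*, *adprs* and *fbxo44.1* were 0.25, 0.28 and 0.57, none past the test (background over all features 0%). With array position subtracted within brightness classes they were 0.258, 0.269 and 0.001, against 0.444 for *smarcd3b*.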

How the data were processed

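RNA (15 µg) was hybridised to 1-colour Agilent zebrafish arrays. The authors qspline normalised the signals and deposited 1 log2 value per feature and array (range 4.92 to 16.3, from which the log2 scale was read). Background correction, detection calls and slides were not stated in any source read. Most named features took a reference symbol through the gene identifier or accession in the platform annotation, and the rest kept its symbol. A gene of the lists kept the annotation symbol where that was the listed one. In all 21061 features had 1 symbol and 24159 were not listed.

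limma 3.58.1 (lmFit, then eBayes; R 4.3.3) compared the groups over all 45220 features with no covariate, and p-values were Benjamini-Hochberg adjusted with a threshold of 0.05. Errors of differences are moderated standard errors. The fit was tested on simulated data with independent noise for each feature and array. Those data held no effect of array position, so the test does not cover it. Whether the samples are separate clutches is not in the labels. The p-values therefore reflect spread among these samples, which may be technical.

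Array position was corrected by the median of neighbouring deviations on a grid of 85 columns, inferred from the correlation between feature numbers, either in windows of 9 or 15 features, or, added after the data were seen, in windows of 25 among features of the same signal quartile. Other alternatives were array weights, the replicate block, median centring or quantile normalisation, a filter on the dimmest 25% of features, robust variance with an intensity trend, the mean of a gene's features and leaving out each array. Members and lists were chosen with earlier results of these data known. Named genes are all member features, *ndr1*, the 2 genes of each list with the smallest p in each direction on their brightest feature and the 3 nearest profiles; the other genes named from the lists were chosen after their values were seen.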

Additional observations from a re-analysis of the deposited data

How the results depend on the processing

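In every alternative 0 of the 12 subunit features passed an adjusted p of 0.05 or an unadjusted p of 0.02. *smarcd3b* stayed above 0 (0.18 to 0.84 without each array in turn), but the alternatives reuse the same arrays and some cannot change its difference. Over all features limma called 0 as fitted, 42 with an intensity trend and robust variance, 28 and 32 with array position subtracted in windows of 9 and 15, and 11 with position subtracted within signal quartiles. The median of the subunit features was 0.12 and 0.10 with windows of 9 and 15. When single arrays were left out, the median of the other BAF subunits lay between 0.10 and 0.38, the highest without *ndr1*-injected replicate 2 and the lowest without control-injected replicate 3. Several subunit features changed sign. With position subtracted (window 9, window 15, within quartiles) *smarcd1* was at 0.33, 0.30 and 0.19, *smarca4a* feature 541 at -0.44, -0.44 and -0.077, *smarca4a* feature 24313 at 0.35, 0.35 and 0.017, and *smarcb1b* at -0.32, -0.37 and -0.021. *smarcc1b* feature 11722 was at -0.004 with position subtracted within quartiles. With array weights *smarca4a* feature 541 was at -0.001 and *smarcc1b* feature 11722 at -0.029. Without each array in turn *smarca4a* feature 541 ran from -0.024 to 0.21, *smarcb1b* from -0.10 to 0.17, *smarcc1b* feature 11722 from -0.18 to 0.21 and *smarcc1b* feature 42005 from -0.06 to 1.20. The mean of its 3 features put *smarcc1b* at 0.12, against -0.38 on the brightest. The causes of these changes were not tested. Replicate numbers are shared by the titles, but same-numbered samples did not deviate together (r of 0.179, -0.101 and 0.0401), so the replicate block was only an alternative. With it 0 features were called, and *smarcd3b* differed by 0.45 (adjusted p 0.746). Detection calls were not available, so how far dim features such as that of *smarcd3b* lie above background is unknown.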

Other observations

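The other ATP-dependent remodellers were read in the same way. Of their features 0 passed an adjusted p of 0.05 by limma, where the background over all features was 0% as well. Genes are named here on their brightest feature, from which other features of the same gene can differ. Those of *smarca1* ran from -0.78 to 0.50 and those of *chd7* from -0.37 to 0.09. The other features of *rsf1a*, *dmap1* and *ino80e* were at 0.14, 0.06 and 0.425. In the ISWI family, which spaces nucleosomes, 17 features for 9 genes had a median difference of -0.09 (0.01 with array position subtracted within signal quartiles, and from -0.17 to 0.10 when single arrays were left out, the sign turning without *ndr1*-injected replicate 1), with *baz2a* at 0.29 ± 0.30 (SE), *smarca1* at 0.19 ± 0.32, *chrac1* at -0.61 ± 0.31 and *rsf1a* at -0.46 ± 0.29. In the CHD and NuRD family 24 features for 14 genes had a median of 0.05 (0.10 with position subtracted, and from -0.01 to 0.09 when single arrays were left out, lowest without *ndr1*-injected replicate 2), with *chd9* at 0.89 ± 0.41, *mta1* at 0.86 ± 0.42, *chd7* at -0.37 ± 0.26 and *mbd3a* at -0.35 ± 0.27. The INO80 and SRCAP family, which exchanges histone variants, had the highest median of the remodeller lists, 0.40 over 27 features for 18 genes, and the groups did not overlap for 6 features, all higher in *ndr1*-injected embryos (background 7.53%). *yeats4* differed by 0.81 ± 0.29, *nfrkb* by 0.69 ± 0.33, *dmap1* by -0.31 ± 0.28 and *ino80e* by -0.21 ± 0.29. With position subtracted, most of these genes lay nearer 0, *yeats4* at 0.26, *chd9* at 0.40, *chd7* at -0.05, *baz2a* at 0.13 and *smarca1* at -0.06. This median was 0.05 with array position subtracted within signal quartiles. When single arrays were left out it lay between 0.14 and 0.46, lowest without control-injected replicate 3.

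The way in which array position was subtracted mattered for bright genes such as the BAF subunits. Windows of 9 features that mixed bright and dim features narrowed the spread within groups for 92.9%, 97.0% and 86.3% of features in signal quartiles 1, 2 and 3, counted from the dimmest, but for 30.4% in quartile 4. Among the 4522 brightest features the median SD was 0.387 with this subtraction, against 0.213 as deposited. Windows that used features of the same quartile gave 0.167 there and narrowed 73.4% of these features. Among the subunits, *smarcd1* had a pooled SD of 0.385 with the mixed windows and 0.112 within quartiles, against 0.039 as deposited. *smarcc1a* feature 19928 had 0.633 and 0.124, against 0.236 as deposited.

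Other cell types of the blastula were read from marker lists, with values of named genes on their brightest feature, from which other features of the same gene can differ (*piwil1* from -0.31 to 1.08, *ttr* 0.35 and -0.85). Enveloping layer markers had a median of 0.10 over 15 features, with *krt18a.1* at 1.45 ± 0.36, *evpla* at 0.90 ± 0.41, *krt5* at -0.10 and *krt4* at -0.06. Yolk syncytial layer markers had a median of -0.21 over 8 features, with *hnf4a* at 0.46, *ttr* at 0.35, *slc40a1* at -1.24 ± 0.33 and *apoa1a* at -0.38. The other *slc40a1* features were at 0.06 and -0.41, or 0.23 and -0.14 with position subtracted within signal quartiles. Germ plasm markers had a median of -0.15 over 15 features, with *tdrd7a* at 0.28, *ddx4* at 0.19, *dazl* at -0.35 and *piwil1* at -0.31. Pluripotency and genome activation markers had a median of -0.18 over 16 features for 6 genes. Of these features 15 were below 0, or 13 with position subtracted within signal quartiles. Many of them read the same gene, most often *sox19b*, so they are not independent and the count is not one of separate genes. Of all named features 54% were above 0, or 53.8% with position subtracted. The lowest of this list were features 41605 and 40261 of *klf17*, at -1.21 ± 0.48 and -0.88 ± 0.37, or -1.44 and -1.06 with position subtracted. As deposited, their unadjusted limma p was 0.0358 and 0.0453 (adjusted p 0.726 each). Of all features 6.74% had an unadjusted limma p below 0.05. The other *klf17* feature was at -0.215, or -0.38 with position subtracted, while *sox19b* was at -0.42. The ventral homeobox gene *vox*, also in this list, was at -0.26. Differentiated tissue markers had a median of -0.15 over 15 features. With position subtracted within signal quartiles, *krt18a.1* was at 0.87 and *slc40a1* at -0.47. The list medians were then 0.075 for the enveloping layer, -0.10 for the yolk syncytial layer and -0.08 for germ plasm. Those of pluripotency and differentiated tissue markers were -0.195 and 0.08. Single arrays also moved the medians of the values as deposited. When each was left out, the enveloping layer median lay between -0.18 (without *ndr1*-injected replicate 1) and 0.37, germ plasm between -0.27 and 0.07 (without *ndr1*-injected replicate 1), yolk syncytial layer between -0.39 (without control-injected replicate 2) and -0.05, pluripotency between -0.31 and -0.05 (without *ndr1*-injected replicate 1), and differentiated tissues between -0.57 (without control-injected replicate 2) and 0.04 (without control-injected replicate 3). The sign also turned for the enveloping layer without control-injected replicate 2 (-0.03) and for differentiated tissues without control-injected replicate 1 (0.02). None of these features passed the test, where the background over all features was 0% as well. Their part in the values of the subunits was not tested.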
